A study of Mus musculus with 6 samples.

Results

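Voltage-gated calcium channels open when the membrane depolarises and let calcium into the neuron, where it triggers transmitter release, shapes firing and reaches the nucleus as a signal. Each channel is built around a pore-forming alpha1 subunit, which sets the current type. The L-type genes are *Cacna1c* and *Cacna1d*, the P/Q-type gene *Cacna1a*, the N-type gene *Cacna1b* and the R-type gene *Cacna1e*. Their channels need stronger depolarisation than T-type channels and assemble with an intracellular beta subunit and an extracellular alpha2-delta subunit. The T-type genes *Cacna1g*, *Cacna1h* and *Cacna1i* encode channels that open close to the resting potential. The alpha2-delta proteins, here *Cacna2d1* and *Cacna2d3*, help to bring the channels to the cell surface and to the presynaptic membrane. Mutations in several of these genes cause epilepsy or ataxia, which makes them of interest beside a manipulation of *Kcna1*. The 10 genes described here are these 8 alpha1 and 2 alpha2-delta genes, found by their symbols among the 50508 symbols that each file lists, and all 10 were found.

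RNA was sequenced from primary mouse neurons, 3 libraries labelled sgLacZ and 3 labelled sgKcna1. The sgLacZ neurons (Ctrl-dCas9A) carried a guide against LacZ and the sgKcna1 neurons (Kcna1-dCas9A) the guide sg19 against the *Kcna1* promoter. Both groups received, by lentivirus, a nuclease-dead Cas9 fused to the activator VP160 under the Ef1alpha promoter, which is not restricted to neurons. The constructs of the groups differ only in the guide. The cultures came from newborn C57Bl/6J pups. The labels name hippocampus, whereas the culture methods name cortical neurons, and the region was not checked here. The study describes its experiments in general as independently repeated, but neither source says of these libraries which came from separate cultures, so that p-values measure the spread between these samples, which may be technical.

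The deposited values were taken to be RPM (reads of a gene relative to all reads of its library), rounded to whole numbers, and come from reads of the 3' end of each transcript. They are therefore not divided by transcript length, and levels of different genes are compared below on this scale of 3' end values. The number of reads is unknown, and no counting intervals are given. Differences were tested with limma on log2(value + 1) over the 19504 genes above 0 in at least 1 library, with Benjamini-Hochberg adjustment, and the difference of the group means on that scale is given as log2 fold change (log2FC) with its standard error (SE). The added 1 makes it too small for low genes. *Kcna1* was listed at 16, 16 and 16 in sgLacZ and at 68, 47 and 65 in sgKcna1, a log2FC of 1.83 (SE 0.16, limma adjusted p = 0.0344). With any single library other than sgLacZ replicate 3 left out, 0 genes passed an adjusted p of 0.05, *Kcna1* included (log2FC 1.73 to 1.99, limma adjusted p from 0.112 to 0.143), while between 3332 and 3853 genes had an unadjusted p under 0.05. The library sgLacZ 3 stood apart from the other sgLacZ libraries. Across 8050 genes with a mean of at least 10, its log2 values correlated with those libraries at 0.954 and 0.960, and with the sgKcna1 libraries at between 0.958 and 0.974. Values without it are given where groups meet through it or a call changes. Neuron markers were listed in every library beside markers of other cells. The summed neuron markers were between 6313 and 8738 in the 6 libraries, the astrocyte markers between 702 and 1069, and the microglia markers between 22 and 72. In bulk RNA, fewer cells of a type and less RNA per cell cannot be told apart.

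**Figure D1:**
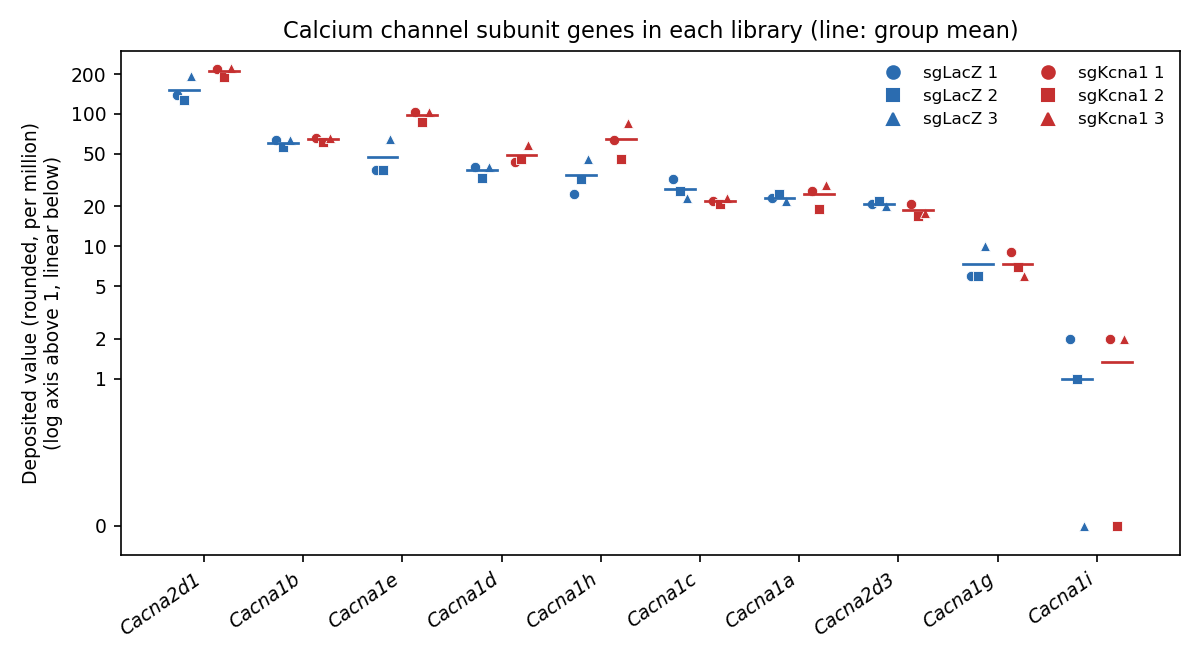
Deposited value (vertical axis, logarithmic above 1 and linear below) of the 10 calcium channel genes in the 3 sgLacZ libraries (blue) and the 3 sgKcna1 libraries (red), ordered by the sgLacZ mean, with a line at each group mean. *Cacna2d1* lies highest in every library, and the groups are parted for *Cacna1e* (38 to 65 against 87 to 103) and *Cacna1d* (33 to 40 against 43 to 58).

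In the sgLacZ neurons the most abundant of the 10 transcripts was *Cacna2d1*, with a mean of 152.7 ± 35.4 (SD, n = 3). It lay above every other gene in each library. Then came *Cacna1b* (60.7 ± 4.04), *Cacna1e* (47 ± 15.6), *Cacna1d* (37.7 ± 4.04), *Cacna1h* (34.3 ± 10.7), *Cacna1c* (27 ± 4.58), *Cacna1a* (23.3 ± 1.53) and *Cacna2d3* (21 ± 1). Among these 7 genes, each overlapped its next neighbour over the sgLacZ libraries, so that the order of neighbours is not resolved by the spread. Genes further apart were parted. *Cacna1b* (56 to 63) lay above every one of the others but *Cacna1e*, and *Cacna1d* (33 to 40) above *Cacna1c*, *Cacna1a* and *Cacna2d3* (20 to 32 together). Below them, and parted from them in every library, stood *Cacna1g* (7.33 ± 2.31) and *Cacna1i* (1 ± 1). In the sgKcna1 neurons *Cacna2d1* was again first (209.7 ± 16.3), followed by *Cacna1e* (97.7 ± 9.24), *Cacna1h* (64.7 ± 19.6) and *Cacna1b* (64.3 ± 2.89), and the last 3 places were held by *Cacna2d3*, *Cacna1g* and *Cacna1i* as in sgLacZ.

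Of the 10 genes, 0 passed an adjusted p of 0.05 between sgKcna1 and sgLacZ, where 1.16% of all genes tested did (226 genes, of which 68 or 0.349% of those tested were higher and 158 or 0.81% lower). An unadjusted p under 0.05 from limma was reached by 4 of the 10, *Cacna1e*, *Cacna1h*, *Cacna2d1* and *Cacna1d*, each with the higher mean in sgKcna1, against 23.2% of all genes. The 8 members with a mean of at least 10 include all 4 of them, and 39.7% of genes at that level reached such a p, so that the count is not read as particular to these genes. The groups did not overlap for 2 of the 10, *Cacna1e* and *Cacna1d*, both higher in sgKcna1. Of all 19504 genes tested, 1752 (8.98%) were higher in sgKcna1 without overlap and 2585 were lower. Of the 8050 genes with a mean of at least 10, 1280 (15.9%) were higher in this way and 1922 lower. This count is therefore not read as particular to the members either. The median log2FC of the 10 was 0.14, against -0.02 over all genes tested. It was 0.04 without sgKcna1 replicate 1, 0.32 without sgKcna1 replicate 2 and 0.26 without sgLacZ replicate 1, with medians over all genes of -0.07, -0.04 and -0.02. After median-of-ratios rescaling the medians were 0.20 for the members and 0.02 for all genes, and after upper-quartile rescaling 0.22 and 0.03. The number of members past the threshold depended on the processing, from 0 to 4 over the alternatives tried. The 4 were among 8 members tested, after a GC correction of genes with a mean of at least 10, where 26.7% of 7196 genes passed. It was 3 after rescaling by median-of-ratios factors, where 1719 genes (8.81%) passed, 962 higher and 757 lower. Without sgLacZ replicate 3 it was 2, *Cacna1e* and *Cacna2d1*, and 2711 genes (14.2%) passed.

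**Figure D2:**
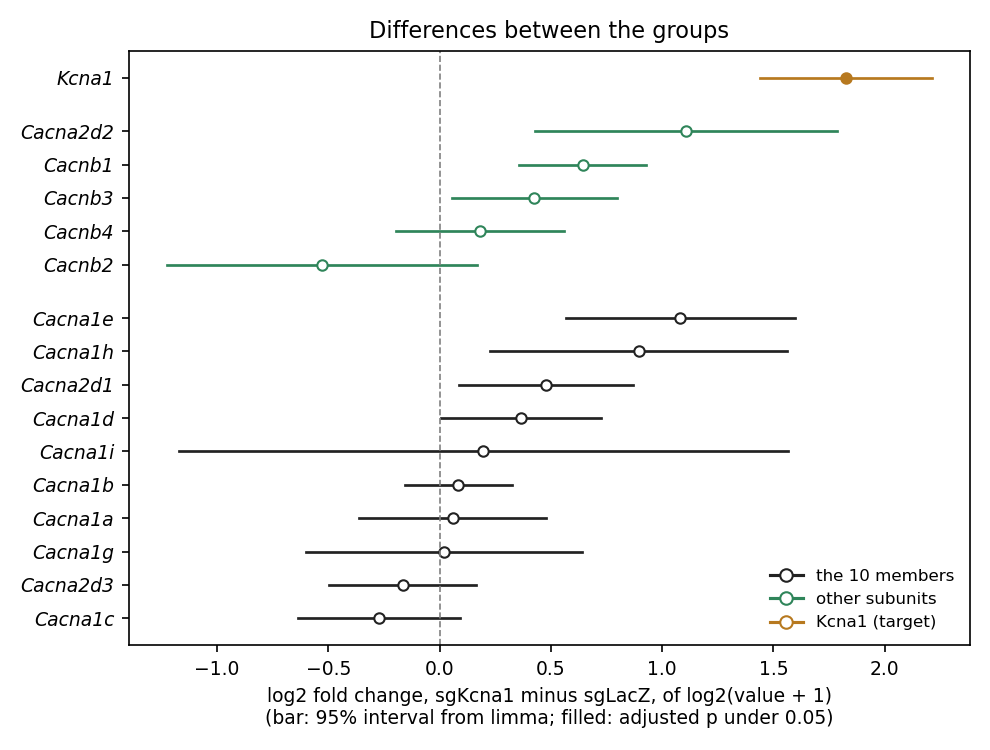
Log2 fold change, sgKcna1 minus sgLacZ, of log2(value + 1) with the 95% interval from limma (3 libraries a group) for the 10 members (black), the 5 other alpha2-delta and beta genes above 0 (green) and *Kcna1* (gold). Filled points have an adjusted p under 0.05, which holds for *Kcna1* and for none of the calcium channel genes shown. The intervals of the members *Cacna1e*, *Cacna1h*, *Cacna2d1* and *Cacna1d* lie above 0, as do those of *Cacna2d2*, *Cacnb1* and *Cacnb3* among the other subunits.

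*Cacna1e* encodes the pore of the R-type channel, which carries calcium into dendritic spines and contributes to burst firing. It was listed at 38, 38 and 65 in sgLacZ and at 103, 87 and 103 in sgKcna1. All sgKcna1 libraries lay above all sgLacZ libraries, with sgLacZ 3 between the other sgLacZ libraries and the sgKcna1 libraries. The means were 47 ± 15.6 and 97.7 ± 9.24 (SD, n = 3), a ratio of 2.08. The log2FC was 1.08 (SE 0.22, 95% interval 0.57 to 1.60, limma adjusted p = 0.0556). This p ranked 563rd of the 19504 genes. The two-sided exact permutation test gave p = 0.1, the smallest that 3 libraries against 3 allow. Over the alternatives the log2FC lay between 0.96 and 1.34, and the adjusted p between 0.00119 and 0.199. Without sgLacZ replicate 3 it was 1.34 (limma adjusted p = 0.0174).

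The *Cacna1e* promoter was set beside the guide, to show how far the 2 sequences differ. sg19 matches chromosome 6 of NCBIM37 exactly at 1 position, chr6:126595930-126595949 on the plus strand, next to the PAM TGG. RefSeq promoter windows (GRCm38.p6, from 250 bases before to 50 after a start) were at hand for 7 of the 10 genes, not for *Cacna1a*, *Cacna1g* or *Cacna1h*. On both strands, the site next to an NGG PAM with the fewest mismatches to the guide was taken, and for *Cacna2d1*, the most abundant member, it is shown as well. Capitals mark bases equal to the guide at the same position, 5′ to 3′, without the PAM.
sg19: AGTCAATGATCACATCCTCC
*Cacna1e*, chr1:154726025-154726044, plus strand: gcgCAggGAcCACcgCCTCt
*Cacna2d1*, chr5:15934598-15934617, minus strand: gGgCtccGgctgCcTtCcCC
The *Cacna1e* site had 9 mismatches over 20 bases, the fewest of the 7 genes, and 15.3% of all 32851 windows held a site at least as close. For *Cacna2d1* the closest site had 12 mismatches, against a median of 11 over all windows. The other 5 genes had closest sites with 10 to 12 mismatches. A site of this kind is a description of the letters in the window, and binding was not measured.

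*Cacna1h*, a T-type channel gene, was listed at 25, 32 and 46 in sgLacZ and at 63, 46 and 85 in sgKcna1. The groups met at 46, which was the value of sgLacZ 3 and the lowest sgKcna1 value. The means were 34.3 ± 10.7 and 64.7 ± 19.6 (SD, n = 3), a ratio of 1.88. The log2FC was 0.89 (SE 0.28, 95% interval 0.23 to 1.56, limma adjusted p = 0.116), and the two-sided exact permutation test gave p = 0.2. Over the alternatives the log2FC of *Cacna1h* lay between 0.68 and 1.12, and the adjusted p between 0.00996 and 0.349. Without sgLacZ replicate 3 the log2FC was 1.12 (limma adjusted p = 0.0735).

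The other T-type genes gave little signal. *Cacna1g*, known from rhythmic firing of thalamic neurons, was listed at 6, 6 and 10 in sgLacZ and at 9, 7 and 6 in sgKcna1. Its means were 7.33 in both groups, and the log2FC of 0.02 (95% interval -0.60 to 0.64) leaves room for a difference of either sign. *Cacna1i* was listed at 2, 1 and 0 in sgLacZ and at 2, 0 and 2 in sgKcna1, at the limit of the rounding, and no difference could be seen at that level (95% interval -1.17 to 1.56).

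Among the presynaptic channels, *Cacna1b* and *Cacna1a* carry most of the calcium that triggers fast release. *Cacna1b* was listed at 63, 56 and 63 in sgLacZ and at 66, 61 and 66 in sgKcna1. Its log2FC was 0.08 (SE 0.10, limma adjusted p = 0.601), and the 95% interval from -0.16 to 0.33 ended below the lower end of that of *Cacna1e*. Over the alternatives the log2FC of *Cacna1b* lay between 0.03 and 0.20. For *Cacna1a* the values were 23, 25 and 22 in sgLacZ and 26, 19 and 29 in sgKcna1. The groups overlapped, and the log2FC was 0.06 (95% interval -0.36 to 0.48, limma adjusted p = 0.855), with 0.23 without sgKcna1 replicate 2 and -0.065 without sgKcna1 replicate 3.

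The L-type genes, whose channels couple depolarisation to transcription, lay on either side of 0. *Cacna1d* was listed at 40, 33 and 40 in sgLacZ and at 43, 46 and 58 in sgKcna1, so that the groups did not overlap, by a gap of 3. Its log2FC was 0.36 (SE 0.15, 95% interval 0.0043 to 0.73, limma adjusted p = 0.209), with adjusted p between 0.0455 and 0.434 and log2FC between 0.24 (without sgKcna1 replicate 3) and 0.48 over the alternatives. *Cacna1c* was listed at 32, 26 and 23 in sgLacZ and at 22, 21 and 23 in sgKcna1. The log2FC of *Cacna1c* was -0.27 (SE 0.15, 95% interval -0.64 to 0.09, limma adjusted p = 0.326), and the groups met at 23, the value of sgLacZ 3. It was -0.38 without sgLacZ replicate 3 (limma adjusted p = 0.125) and -0.15 without sgLacZ replicate 1, the ends of its range over the alternatives, in which the adjusted p lay between 0.125 and 0.592.

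Of the alpha2-delta genes, *Cacna2d1* encodes the main binding site of gabapentin and pregabalin. It was listed at 138, 127 and 193 in sgLacZ and at 217, 191 and 221 in sgKcna1. The groups overlapped only through sgLacZ 3, which lay 2 above the lowest sgKcna1 library. The log2FC was 0.48 (SE 0.17, 95% interval 0.09 to 0.87, limma adjusted p = 0.14), and 0.66 without sgLacZ replicate 3 (limma adjusted p = 0.0253). Over the alternatives the log2FC of *Cacna2d1* lay between 0.36 and 0.72, and the adjusted p between 0.00524 and 0.383. *Cacna2d3* was listed at 21, 22 and 20 in sgLacZ and at 21, 17 and 18 in sgKcna1, a log2FC of -0.17 (95% interval -0.50 to 0.16, limma adjusted p = 0.513) that lay between -0.25 and -0.05 over the alternatives.

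**Figure D3:**
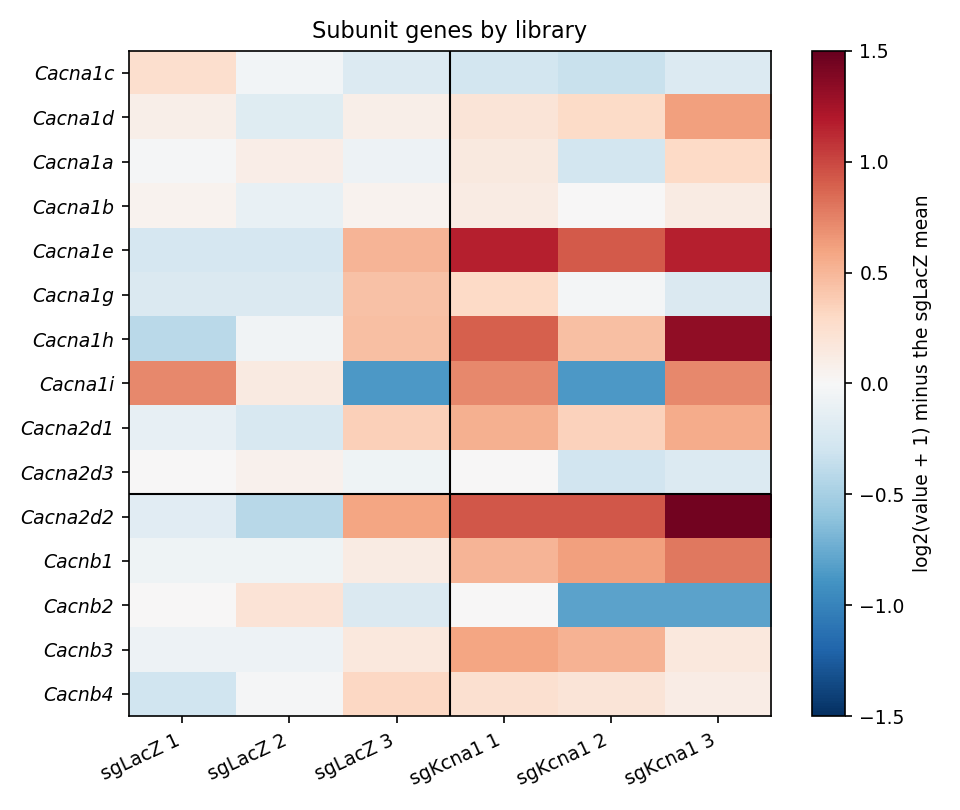
Log2(value + 1) minus the sgLacZ mean (colour) of the 10 members (above the horizontal line) and the 5 other alpha2-delta and beta genes above 0 (below it) in each library, with a vertical line between the groups. sgLacZ 3 is above the other sgLacZ libraries for *Cacna1e* (65 against 38 and 38), *Cacna1h* (46 against 25 and 32), *Cacna2d1* (193 against 138 and 127) and *Cacna2d2* (21 against 12 and 10).

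Added over the 8 alpha1 genes, the values came to 229, 217 and 269 in sgLacZ and to 334, 287 and 372 in sgKcna1. Every sgKcna1 library was above every sgLacZ library, and the ratio of the means was 1.39. The sum of *Cacna1a*, *Cacna1b* and *Cacna1e* had a ratio of 1.43 (124, 119 and 150 against 195, 167 and 198), that of the T-type genes 1.72 (33, 39 and 56 against 74, 53 and 93) and that of the L-type genes 1.10 (72, 59 and 63 against 65, 67 and 81). The T-type and L-type sums overlapped between the groups, the T-type sum only through sgLacZ 3 (56 against 53), without which its ratio was 2.04.

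The make-up of this alpha1 pool is a quantity that does not depend on how a library is scaled. *Cacna1e* made up 16.6%, 17.5% and 24.2% of it in sgLacZ and 30.8%, 30.3% and 27.7% in sgKcna1. The share of *Cacna1b* was 27.5%, 25.8% and 23.4% in sgLacZ and 19.8%, 21.3% and 17.7% in sgKcna1. *Cacna1c* held 13.97%, 11.98% and 8.55% against 6.59%, 7.32% and 6.18%, and *Cacna1a* 10.04%, 11.52% and 8.18% against 7.78%, 6.62% and 7.80%. For these 4 genes the shares did not overlap between the groups, *Cacna1e* with the larger share in sgKcna1 and the other 3 with the smaller. The shares sum to a whole, so that they are not independent of each other. The share of *Cacna1h* overlapped (10.9%, 14.7% and 17.1% against 18.9%, 16.0% and 22.8%) through sgLacZ 3. That of *Cacna1d* overlapped as well. Within the alpha2-delta pair, *Cacna2d1* held 86.8%, 85.2% and 90.6% in sgLacZ and 91.2%, 91.8% and 92.5% in sgKcna1.

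**Figure D4:**
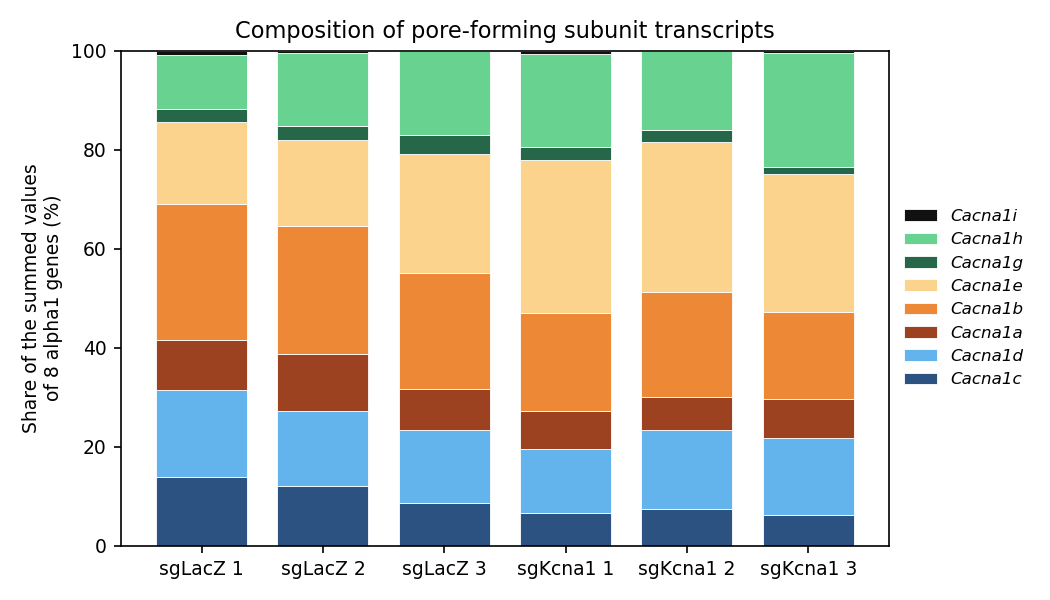
Share in percent (vertical axis, from 0 to 100) of each alpha1 gene in the summed values of the 8 alpha1 genes, 1 bar per library. The *Cacna1e* segment is between 16.6% and 24.2% in the sgLacZ libraries and between 27.7% and 30.8% in the sgKcna1 libraries, while the *Cacna1c* segment is between 8.55% and 13.97% and between 6.18% and 7.32%.

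The remaining subunits of the channel complex are *Cacna1f* and *Cacna1s*, L-type genes of retina and skeletal muscle, the other alpha2-delta genes, and the beta genes, which carry the alpha1 subunit to the membrane. *Cacna1f*, *Cacna1s* and *Cacna2d4* were listed at 0 in all 6 libraries. Of the 5 genes above 0, 0 passed an adjusted p of 0.05 from limma, 3 had an unadjusted p under 0.05 (23.2% of all genes tested and 39.7% of those with a mean of at least 10 did), and the median log2FC was 0.42, against -0.02 over all genes. *Cacna2d2*, which like *Cacna2d1* binds gabapentin, was listed at 12, 10 and 21 in sgLacZ and at 27, 27 and 39 in sgKcna1, so that the groups did not overlap. Its log2FC was 1.11 (SE 0.29, limma adjusted p = 0.075). *Cacnb1* was listed at 42, 42 and 48 and at 63, 68 and 77, also without overlap, with a log2FC of 0.64 (SE 0.12, limma adjusted p = 0.0531). Both had an adjusted p under 0.05 without sgLacZ replicate 3 (0.0287 for *Cacna2d2* and 0.029 for *Cacnb1*, limma). Over the alternatives the adjusted p lay between 0.00546 and 0.260 for *Cacna2d2* and between 0.00582 and 0.166 for *Cacnb1*. *Cacnb3* was listed at 26, 26 and 31 and at 42, 40 and 31, *Cacnb4*, the most abundant beta gene in sgLacZ, at 51, 62 and 78 and at 74, 72 and 68, and *Cacnb2* at 6, 7 and 5 and at 6, 3 and 3. The groups overlapped for these 3, for *Cacnb3* and *Cacnb4* through sgLacZ 3. The log2FC of *Cacnb4* was 0.18, with 0.34 without that library (limma adjusted p = 0.12) and 0.04 without sgLacZ replicate 1. That of *Cacnb3* was 0.42, with 0.51 without sgLacZ replicate 3 (limma adjusted p = 0.107). After a GC correction of genes with a mean of at least 10, *Cacnb4* was at 0.43 (limma adjusted p = 0.0724) and *Cacnb3* at 0.30 (limma adjusted p = 0.234). The 4 beta genes together came to 125, 137 and 162 in sgLacZ and to 185, 183 and 179 in sgKcna1.

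Other genes of calcium signalling were read from lists, against the same shares of 23.2% and 39.7% of genes at an unadjusted p under 0.05 and the median log2FC of -0.02 over all genes. Of the 8 gamma subunit genes, which include the AMPA receptor partners called TARPs, 1 was lower and 0 were higher at an adjusted p of 0.05, 1 had an unadjusted p under 0.05, and the median log2FC was -0.10. That gene, *Cacng4*, fell from 242, 224 and 202 to 146, 147 and 149, a log2FC of -0.59 (limma adjusted p = 0.0496). Of the 19 genes above 0 among partners and regulators of the channel, such as RIM and G protein genes, 0 passed in either direction and 7 had an unadjusted p under 0.05, a share between those 2, with a median log2FC of 0.26. Among the abundant ones, the G protein gene *Gnao1* was listed at between 869 and 1064. Of the 21 genes of calcium pumps, exchangers and stores, 0 passed and 0 had an unadjusted p under 0.05, with a median of 0.23. Here the plasma membrane pump *Atp2b1* was listed at between 1525 and 1668, and *Atp2a2*, the pump of the endoplasmic reticulum, at between 100 and 130, with groups that overlapped for both. Of the 12 calcium buffers and sensors above 0, 1 passed, lower, and 2 had an unadjusted p under 0.05, with a median of -0.06. This was *Ncs1*, a calcium sensor protein, at 99, 92 and 63 in sgLacZ and 34, 26 and 26 in sgKcna1, a log2FC of -1.51 (limma adjusted p = 0.0486). *Cacng4* and *Ncs1* were among the genes that no longer passed with a library other than sgLacZ replicate 3 left out.

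The genes whose values, centred on their mean, lay closest to those of *Cacna1e* over the 6 libraries were *Clip2*, *Cttnbp2* and *Nsun2*, with root mean square distances of 0.07, 0.07 and 0.08 on the log2 scale among 8049 genes with a mean of at least 10. *Clip2* was listed at 47, 43 and 70 in sgLacZ and at 125, 101 and 126 in sgKcna1. Because these genes were picked for their likeness to *Cacna1e* in the same libraries, their shared pattern is no separate observation.

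Markers of other cells were read from lists as well, by their sums and by the genes that passed, where 0.349% of all genes tested passed as higher and 0.81% as lower. The summed astrocyte markers (10 genes, 3 lower and 0 higher at an adjusted p of 0.05 from limma) were between 961 and 1069 in sgLacZ and between 702 and 718 in sgKcna1. The oligodendrocyte lineage markers (7 of 8 above 0, *Mog* at 0) were between 66 and 98 and between 40 and 44, with 1 gene lower. The cell cycle genes (8) were between 112 and 117 and between 65 and 73, with 0 genes past the threshold. The microglia markers (6 of 8 above 0, *Tmem119* and *P2ry12* at 0) were between 22 and 25 and between 53 and 72, with 1 gene higher. The sums of inhibitory neuron markers (279 to 312 and 269 to 317), excitatory neuron markers (1340 to 1500 and 1298 to 1378) and vascular and smooth muscle markers (7 to 12 and 5 to 10, *Myh11* at 0) overlapped between the groups. Single inhibitory and excitatory markers parted both ways. Of 8 inhibitory markers, 1 was higher and 3 were lower in sgKcna1 without overlap. Of 8 excitatory markers, 3 were higher and 1 was lower. Of all 19504 genes tested, 1752 were higher and 2585 lower in this way. In both lists 0 genes passed an adjusted p of 0.05 from limma. The neuron markers summed to between 6313 and 7197 and between 7343 and 8738, a sum dominated by *Tubb3* (1862, 1752 and 2605 against 3855, 3221 and 4591), while 5 of the 10 had the higher and 5 the lower log2 mean in sgKcna1. The part of these differences in the calcium channel values was not tested.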

How the data were processed

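RNA of 6 libraries of primary mouse neurons was prepared by the authors with a QuantSeq 3' kit. The paper's methods name Bowtie2 and NCBI37/mm9 for these libraries, while the submitters' processing notes name STAR 2.7, featureCounts, DESeq2 and mm10. Which of these made the files could not be settled, and the files hold no coordinates. The deposited files give a score per gene symbol, a whole number without a header. The scores sum to between 999047 and 999717 per library, and for genes averaging 4 to 8 the replicate variance was 0.698 (sgLacZ) and 0.499 (sgKcna1) times the mean, below what read counts give. They were taken as rounded per-million values. Depth is therefore unknown, and count tests were not used.

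Every gene with a value above 0 in any library (19504) entered limma 3.58.1 in R 4.3.3 (lmFit, eBayes with an intensity trend) on log2(value + 1), with group as the only factor, Benjamini-Hochberg adjustment over all genes and a threshold of 0.05. The fit was tested on simulated data. The members and the gene lists were chosen with earlier results of these data known. Named genes were the 10 members, *Kcna1*, all other channel subunits, and the 3 genes most like the member with the smallest p. Of the calcium signalling lists, genes past the threshold or otherwise the most abundant were named. Marker lists were given by sums and counts. *Gnao1*, *Atp2a2* and *Tubb3* were named for level, and markers at 0 by their absence. 1 gene that the rule names is not reported here. Groups and replicate numbers came from the sample titles. Same-numbered libraries deviated from their group means with correlations of 0.01, 0.11 and 0.15, so that the numbers were not taken as pairs. Alternatives were other pseudocounts, a low-value filter, rescalings, no trend, the replicate block and each library left out. A filter at a mean of 10 and a GC correction (lowess, transcripts of GENCODE vM1) were chosen after seeing the data. The sequence search used Python 3.11.15.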

Additional observations from a re-analysis of the deposited data

How the results depend on the processing

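The number of genes past the threshold, 226 as reported (68 higher, 158 lower), was 10 with a pseudocount of 0.5, 627 with 0.1, 1543 for genes with a mean of at least 1, 1719 after median-of-ratios rescaling (962 higher and 757 lower), 2058 after upper-quartile rescaling (1226 higher and 832 lower), 1808 without Gm42418 (700 higher, 1108 lower), 201 without the trend (117 higher, 84 lower), and between 0 and 2711 with 1 library left out, above 0 only without sgLacZ replicate 3. Among fits chosen after seeing the data it was 2289 for genes with a mean of at least 10, 2081 for those that also have a GC value (797 higher, 1284 lower) and 1920 for the latter after the GC correction (1013 higher, 907 lower). The number of the 10 members past it, 0 as reported, was 1 for genes with a mean of at least 1 (11.3% of all genes in that fit passed), 3 with median-of-ratios (8.81%) and with upper-quartile factors (10.6%), 2 without Gm42418 (9.27%), and between 0 and 2 with 1 library left out. At a mean of at least 10 it was 3 of 8 members (28.4% of 8050 genes passed), again 3 with a GC value (28.9% of 7196), and 4 after the GC correction (26.7%), where *Cacna1d* joined *Cacna1e*, *Cacna1h* and *Cacna2d1*. Every member that passed in any of these was higher in sgKcna1, and the cause was not tested. With the replicate number as a replicate block, 0 genes and 0 members passed (4326 genes and 3 members at an unadjusted p under 0.05), and *Kcna1* had an adjusted p of 0.111 from limma. No block result is read as a smaller effect, since the numbers are not known to pair the cultures. Among the members, directions turned only for *Cacna1g*, *Cacna1i* and *Cacna1a*. *Cacna1g* lay between -0.12 and 0.24, *Cacna1i* between -0.24 and 0.72 and *Cacna1a* between -0.065 and 0.23 with 1 library left out, and *Cacna1a* was at -0.045 after the GC correction. Among the 10 members, *Cacna1i* and *Cacna1g* have the lowest values, for which a step of 1 from rounding is the largest share of the value.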
